A study of Mus musculus with 6 samples.

Results

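The genes described here are 6 markers of unipolar brush cells and of neurons of the cerebellar nuclei: Eomes, Lmx1a, Tbr1, Slc17a6, Spp1 and Calb2. All probes that the platform annotation pairs with these symbols were taken, 10 of the 45281 probes on the array, and they covered 5 of the 6 genes. Spp1 was not analysed here. Of the 10 probes, 6 (in Eomes, Slc17a6 and Calb2) gave a signal above background on at least 3 of the 6 arrays and could be tested, among 19515 such probes in all. The other 4, for Lmx1a and Tbr1, are given as levels and detection only.

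Cerebella were taken at postnatal day 21 from male mice of a Black Swiss X CD1 background, from 3 wild-type animals and 3 Sp4neo-/- hypomorphs described as littermate pairs. Sp4 belongs to the Sp family of zinc-finger transcription factors, and a hypomorphic allele lowers a gene's product without necessarily removing it. The labels name no tissue-specific driver and no treatment. Biotin-labelled RNA of each cerebellum was read on an Illumina bead array, and each array is named below by genotype and number. Between 18656 and 20135 probes per array were above background (detection p under 0.05). The arrays, 3 per group, limit the precision. The labels give a number per array and do not say that it marks a litter.

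Unipolar brush cells are excitatory interneurons of the granular layer, most dense in the vestibular lobules, where each receives a mossy fibre on a brush-like dendrite and relays it to granule cells. Neurons of the cerebellar nuclei carry the output of the cerebellum, and the large glutamatergic ones project to the brainstem and thalamus. Unipolar brush cells and the glutamatergic nuclear neurons descend from the rhombic lip, as granule cells do, and the T-box and LIM-homeodomain factors among the markers act along that lineage. Both cell types are a small minority of a cerebellum made up mostly of granule cells. In RNA from whole tissue, fewer cells of a type and less RNA per cell cannot be told apart.

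Sp-family factors are known to bind GC boxes, so the 250 bases before an annotated start of 4 members are shown, from RefSeq on GRCm38.p6, all on the plus strand. Capitals mark GGGCGG or its reverse complement CCGCCC, searched on both strands. Eomes is shown from chr9:118477939-118478188, Lmx1a from chr1:167689308-167689557, Tbr1 from chr2:61804203-61804452 and Slc17a6 from chr7:51621580-51621829.
Eomes: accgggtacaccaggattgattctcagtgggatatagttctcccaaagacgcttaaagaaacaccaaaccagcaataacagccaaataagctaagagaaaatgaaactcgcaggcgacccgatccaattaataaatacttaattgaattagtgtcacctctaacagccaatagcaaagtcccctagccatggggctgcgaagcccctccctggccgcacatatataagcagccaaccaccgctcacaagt
Lmx1a: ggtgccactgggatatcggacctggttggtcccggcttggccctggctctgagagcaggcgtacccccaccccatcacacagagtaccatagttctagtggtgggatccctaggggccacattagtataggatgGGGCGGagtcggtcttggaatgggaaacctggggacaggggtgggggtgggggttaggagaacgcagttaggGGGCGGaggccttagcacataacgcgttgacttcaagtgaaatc
Tbr1: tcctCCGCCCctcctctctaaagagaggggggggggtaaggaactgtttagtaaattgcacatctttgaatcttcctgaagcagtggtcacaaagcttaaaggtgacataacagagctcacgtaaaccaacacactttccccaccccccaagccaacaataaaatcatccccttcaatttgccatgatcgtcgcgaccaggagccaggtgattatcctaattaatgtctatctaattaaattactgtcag
Slc17a6: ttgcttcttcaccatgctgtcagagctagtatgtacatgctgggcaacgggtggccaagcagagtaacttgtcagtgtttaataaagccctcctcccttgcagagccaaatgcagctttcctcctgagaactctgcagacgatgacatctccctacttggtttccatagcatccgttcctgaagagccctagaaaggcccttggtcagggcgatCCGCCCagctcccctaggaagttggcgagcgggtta
The Lmx1a window held 2 matches, which began 116 and 44 bases before the start. The Slc17a6 window held 1 match, 36 bases before the start, the Tbr1 window 1 match, 246 bases before it, and the Eomes window 0. Slc17a6 has a second annotated start, whose window held 0 matches, as did both windows of Spp1. Of all 32851 windows of this length, 32.7% held at least 1 match, so a match in 3 of the 7 members' windows is a description of these letters and not of binding. No window was listed for Calb2. The starts are those of the promoter table, and genes can have others: the Lmx1a and Tbr1 windows lie inside the spans of their genes, so their distances are not from the outermost annotated base. In the same assembly the measured genes span chr9:118478186-118486132 (Eomes), chr1:167688230-167848741 (Lmx1a), chr2:61802863-61814114 (Tbr1), chr7:51621830-51671126 (Slc17a6) and chr8:110142526-110168212 (Calb2).

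Sp4 was read first as a check of the genotype labels. Both of its probes were lower in the hypomorph with no overlap between groups: ILMN_1259753 by 1.30 on the log2 scale (SE 0.26) and ILMN_1253376, not above background on any hypomorph array, by at least 1.5-fold. For such a bound, a probe's signal in the dim group is raised, array by array, to the lowest value that still counts as detected. ILMN_1259753 did not pass in limma (Benjamini-Hochberg adjusted p = 0.355 over all tested probes). ILMN_1253376 passed the detection filter only through the wild-type arrays, where it is high, so its values are a description with no test.

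Levels are given below as log2 intensity after background correction and quantile normalization, and every difference is hypomorph minus wild type on that scale. In limma, 0 of the 6 tested member probes had an adjusted p under 0.05, where 0% of all tested probes did. At an unadjusted p under 0.05 there were also 0 member probes, against 5.31% of all tested probes. The groups of 3 overlapped on all 6 member probes, whereas they did not overlap on 10.5% of all tested probes.

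Eomes (Tbr2), the T-box factor that marks unipolar brush cells and is needed for their formation, was above background on all 6 arrays with both of its probes. Probe ILMN_1251446, annotated to the curated transcript, read 7.81, 7.34 and 7.55 in wild type 1 to 3 and 7.36, 7.36 and 6.80 in hypomorph 1 to 3. The group means were 7.57 ± 0.24 (SD, n = 3) and 7.17 ± 0.33, a difference of -0.39 with an SE of 0.21 and a 95% interval from -0.88 to 0.09. Hypomorph 3 had the lowest value, and hypomorphs 1 and 2 lay just above wild type 2. The difference did not pass (limma, unadjusted p = 0.0985, adjusted p = 0.987).

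The second Eomes probe, ILMN_2570496, annotated to a separate cDNA clone, went the other way. It read 6.91, 7.12 and 7.72 in wild type 1 to 3 and 7.47, 8.07 and 7.27 in hypomorph 1 to 3. The group means were 7.25 ± 0.42 (SD, n = 3) and 7.60 ± 0.41, a difference of 0.35 with an SE of 0.28 and a 95% interval from -0.30 to 1.00 (adjusted p = 0.999 in limma). Hypomorph 2 was highest and wild type 1 lowest, and this sign turned to -0.05 when arrays were weighted by their quality. In that weighting, the gene's other probe stood at -0.55.

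Within arrays, the log2 value of ILMN_2570496 minus that of ILMN_1251446 was -0.90, -0.22 and 0.17 in wild type and 0.11, 0.71 and 0.47 in the hypomorph. The mean shift between genotypes was 0.74, with wild type 3 above hypomorph 1. An exact two-sided permutation test gave p = 0.2, where 3 against 3 arrays cannot give less than 0.1. The adjusted p over the 3 genes with a pair of tested probes was 0.6. The mean of both probes differed by -0.02, so the direction for Eomes depends on which probe is read. The positions of both probes on the Eomes transcripts were not analysed here.

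Lmx1a, a LIM-homeodomain factor of the roof plate, the rhombic lip and unipolar brush cells, was not well above background. Its probe ILMN_2823980 had deposited intensities of 27.6, 10.4 and 22.5 in wild type 1 to 3 and 33.1, 32.3 and 26.7 in hypomorph 1 to 3, which are linear values after background subtraction by the authors' software. Only hypomorph 2 passed the detection threshold, with a detection p of 0.0481, and hypomorph 1 followed with 0.0684. On the log2 scale wild type averaged 5.35 ± 0.23 (SD, n = 3) and the hypomorph 5.59 ± 0.10, and wild type 1 lay above hypomorph 3.

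The other Lmx1a probes were above background on 0 of 6 arrays each. ILMN_2655648 had detection p-values between 0.107 in wild type 1 and 0.544 in hypomorph 3. ILMN_1249859 lay between 0.427 in hypomorph 2 and 0.764 in wild type 1, with deposited intensities below 0 on all 6 arrays. No fold is given for Lmx1a, since nearly all its values are at the level of the background. Lmx1b, its closest relative, was also above background on 0 arrays with both of its probes.

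Tbr1, the T-box factor of neurons in the medial nucleus and of cortical projection neurons in the forebrain, had 1 probe, ILMN_2920503. Its deposited intensities were 31.8, 41.2 and -1.30 in wild type 1 to 3 and 29.1, 10.3 and 30.8 in hypomorph 1 to 3. Its detection value was under the threshold in wild type 2 only (0.0331), and hypomorph 3 (0.0577) and wild type 1 (0.0641) lay just beyond it. The values of the groups were mixed, with means of 5.45 ± 0.47 (SD, n = 3) and 5.43 ± 0.27 on the log2 scale. Over the 24 pairs of an untested member probe and an array, 2 were above background.

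**Figure D1:**
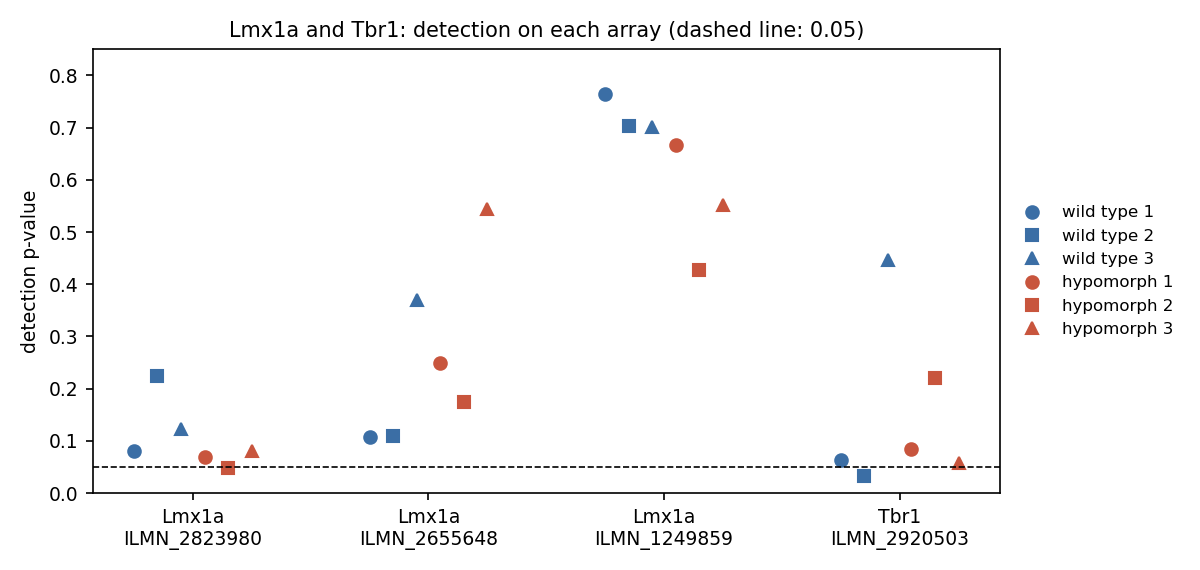
Detection p-value (vertical axis, no unit) of the 3 Lmx1a probes and the Tbr1 probe on each array, with 1 point per array, coloured by genotype and shaped by number. Points under the dashed line at 0.05 count as above background, which holds for hypomorph 2 on ILMN_2823980 and for wild type 2 on the Tbr1 probe.

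Slc17a6 (VGLUT2) loads glutamate into synaptic vesicles. It marks the glutamatergic neurons of the nuclei, and developing granule cells also use it before they switch to Slc17a7 (VGLUT1). Both probes were above background on all 6 arrays. ILMN_2922321 read 11.57, 11.06 and 11.52 in wild type 1 to 3 and 11.21, 11.46 and 10.91 in hypomorph 1 to 3. Hypomorph 3 was lowest, wild type 2 was next, and hypomorph 2 lay close to wild types 1 and 3.

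For ILMN_2922321 wild type averaged 11.38 ± 0.28 (SD, n = 3) and the hypomorph 11.19 ± 0.28. The difference was -0.19 with an SE of 0.21 and a 95% interval from -0.67 to 0.30, and it did not pass (limma, unadjusted p = 0.390, adjusted p = 0.999). ILMN_2773047 read 11.20, 10.74 and 11.44 in wild type and 10.94, 11.23 and 10.60 in the hypomorph, with hypomorph 3 again lowest. Its difference was -0.20 with an SE of 0.23 and an interval from -0.75 to 0.35.

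The 2 Slc17a6 probes moved together across arrays. Their difference within an array had an SD of 0.10 over the 6 arrays, against 0.57 for the pair of Eomes probes and 0.23 for the pair of Calb2 probes. Both Slc17a6 differences shrank to -0.04 without hypomorph 3 and were -0.35 and -0.39 without wild type 2. With arrays weighted by quality they were -0.41 and -0.53, which did not pass either (adjusted p = 0.401 and 0.377). The lowest weights were 0.445 for wild type 2 and 0.549 for hypomorph 2, and the highest 2.83 for wild type 3 and 2.03 for hypomorph 3.

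Calb2 (calretinin) is a calcium-binding protein of a subset of unipolar brush cells and, in the mouse cerebellum, of granule cells as well. It therefore does not single out unipolar brush cells in whole tissue. Both probes were above background on all 6 arrays. ILMN_2827729 read 13.75, 14.50 and 14.36 in wild type 1 to 3 and 14.09, 14.50 and 14.38 in hypomorph 1 to 3. Wild type 1 was the lowest array and hypomorph 1 the next, while the other 4 arrays lay close together.

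The means of ILMN_2827729 were 14.20 ± 0.40 (SD, n = 3) and 14.32 ± 0.21, a difference of 0.12 with an SE of 0.23 and a 95% interval from -0.41 to 0.65 (limma, adjusted p = 0.999). ILMN_2597412 read 11.89, 13.11 and 12.28 in wild type and 12.21, 12.75 and 12.62 in the hypomorph, a difference of 0.10 with an SE of 0.32. Without wild type 1 the 2 differences turned to -0.10 and -0.17. Without hypomorph 2 that of ILMN_2597412 was -0.01.

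**Figure D2:**
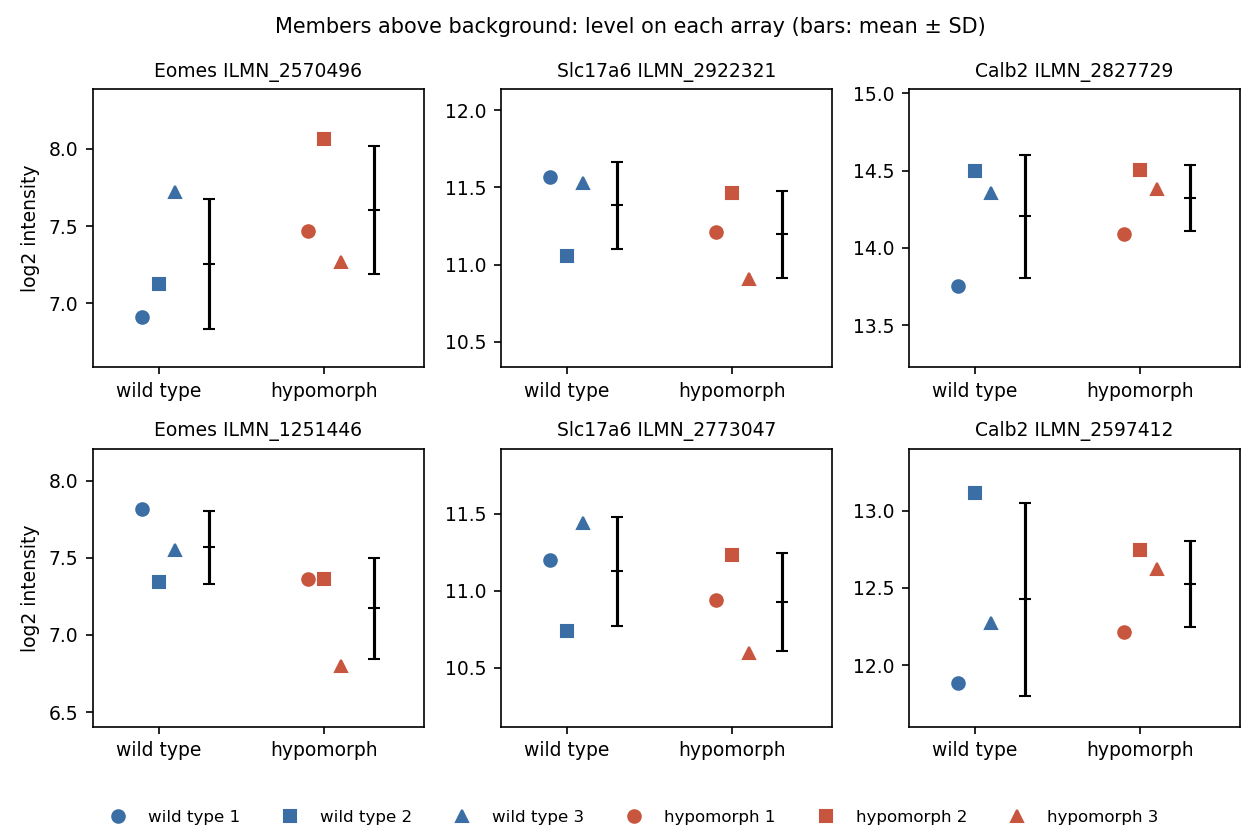
Level in log2 intensity (vertical axis) of the 6 tested member probes on each array, by genotype, with 1 point per array shaped by its number, and bars for the mean and SD of each group. All panels span the same log2 range, and the groups overlap in every panel.

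Levels of marker lists on the same arrays are given beside these values, as the mean deviation of a list's measured genes from their mean over the 6 arrays. The 9 measured granule cell markers were low on wild type 1 (-0.20) and hypomorph 1 (-0.14), the arrays with the lowest Calb2, and highest on wild type 2 (0.22). They stood at only 0.0011 on hypomorph 2 and -0.03 on wild type 3, where Calb2 ILMN_2827729 read 14.50 and 14.36. The 3 measured brainstem and midbrain markers were lowest on hypomorph 3 (-0.26), the array with the lowest Slc17a6, but lay at -0.03 on wild type 2. The 10 measured oligodendrocyte markers stood at -0.27 on hypomorph 3 and -0.19 on wild type 2, the arrays with the lowest Slc17a6, and also at -0.19 on hypomorph 2, where Slc17a6 was not low. Of the brainstem and midbrain list, 11 genes had probes that did not pass the filter, among them the hindbrain genes Hoxa2 and Hoxb2 and the cholinergic gene Chat. The part of these cell populations in the members' values was not tested.

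**Figure D3:**
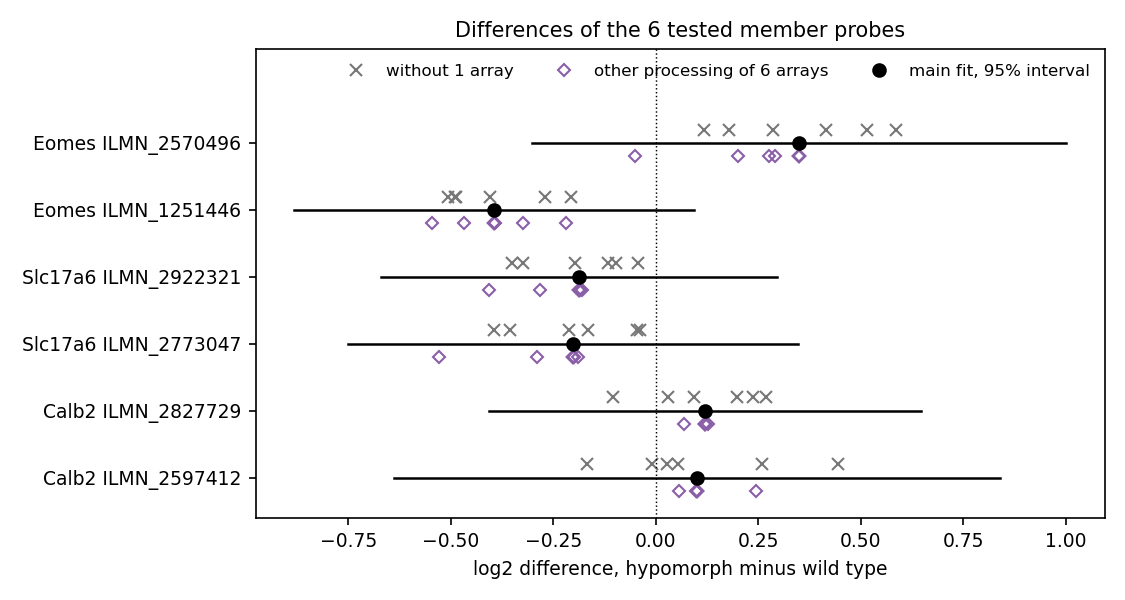
Difference between hypomorph and wild type (horizontal axis, log2) of the 6 tested member probes, with black points and lines for the value and its 95% interval, crosses for fits without 1 array and diamonds for other processings of all 6 arrays. Every interval includes 0, and the Eomes probes lie on opposite sides of it.

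Other genes of unipolar brush cells gave little to set beside Eomes. Of 7 listed genes, 2 were measured, Otx2, a homeobox factor of the caudal rhombic lip that the choroid plexus also expresses, and Plcb4, a phospholipase downstream of metabotropic glutamate receptors. Otx2 differed by 0.14 (SE 0.23) and Plcb4 by 0.13 (SE 0.25), and neither passed (adjusted p = 0.999 each in limma). Plcb4 read 9.36 in hypomorph 2 and between 8.48 and 8.77 on the other 5 arrays. Plcb1 did not pass the filter, and the rest of the list was not analysed here.

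Of 13 other genes of cerebellar nuclear neurons, 7 were measured, 2 with higher and 5 with lower values, and 0 passed. Their median difference was -0.05, beside -0.01 over all 10764 measured genes, of which 48.1% had higher values. Meis2, a homeobox factor of nuclear neurons, differed by -0.49 (SE 0.29). It read 8.06, 6.95 and 7.91 in wild type and 7.30, 7.13 and 7.01 in the hypomorph, so that wild type 2 was the lowest array of all. Kcnc1, a fast potassium channel subunit, differed by 0.17 (SE 0.19), and Nefm, a neurofilament subunit of large axons, by -0.16 (SE 0.21). Slc6a5, the glycine transporter of glycinergic nuclear and Golgi neurons, was above background on 0 of 6 arrays with both of its probes. These probes therefore give no measure of that transcript, and its absence is not shown. Lhx2, Lhx9 and Nefl had probes that did not pass the filter, and the rest of the list was not analysed here. The measured gene Slc32a1 also stands among the Golgi cell and molecular layer interneuron markers. The list therefore does not single out nuclear neurons in whole tissue.

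Genes of perineuronal nets, the matrix that surrounds large nuclear neurons, had lower values in 5 of 6 measured, with a median of -0.07, and 0 passed. Which cells these values come from was not tested. Bcan (brevican) differed by -0.11 (SE 0.15) on its brightest probe and by -0.02 (SE 0.14) on another. Ncan (neurocan) differed by -0.09 (SE 0.15) and Acan (aggrecan) by -0.14 (SE 0.31). Acan lay near background, with a detected signal on only 1 wild-type and 2 hypomorph arrays. The Acan value turned to 0.16 without hypomorph 2, to 0.06 without wild type 1 and to 0.04 with array weights.

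Factors of the rhombic lip and granule lineage had higher values in 3 of 7 measured, with a median of -0.02, and 0 passed. Zic4, a zinc-finger factor of granule cell precursors, differed by -0.37 (SE 0.37), and its 4 dimmer tested probes ran from -0.40 to 0.21. Neurod1, a differentiation factor of granule cells, differed by -0.26 (SE 0.30). Zic2 differed by 0.15 (SE 0.23) on its brightest probe and by 0.88 (SE 0.48) on another. Atoh1, which specifies the rhombic lip, was above background on 0 of 6 arrays, and so was Pax6 on both of its probes. Probes at background give no measure of these transcripts, so their absence is not shown.

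**Figure D4:**
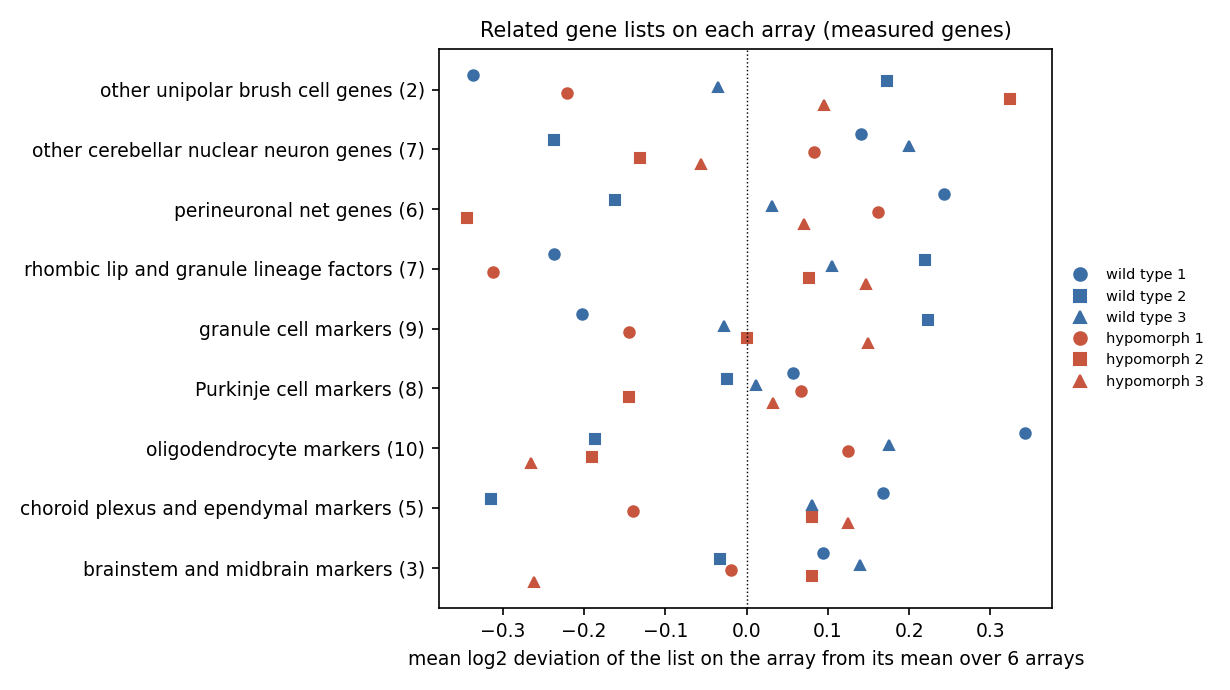
Mean deviation of each list on an array from its mean over the 6 arrays (horizontal axis, log2), with the number of measured genes after each name and 1 point per array. Wild type 2 and hypomorph 2 lie low for nuclear neuron and perineuronal net genes and oligodendrocyte markers. Wild type 1 and hypomorph 1 lie low for rhombic lip factors, granule cell markers and other unipolar brush cell genes.

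The nuclear neuron, perineuronal net and rhombic lip lists differed between arrays of one genotype. In them, same-numbered arrays of numbers 1 and 2 lay on the same side. Nuclear neuron genes stood at -0.24 on wild type 2 and -0.13 on hypomorph 2, and perineuronal net genes at -0.16 and -0.34. Rhombic lip factors stood at -0.24 on wild type 1 and -0.31 on hypomorph 1. On wild type 3 and hypomorph 3 the 3 lists lay between -0.06 and 0.20. The same side for numbers 1 and 2 was not particular to these 3 lists. It also held for the other unipolar brush cell genes and for granule cell, Purkinje cell and oligodendrocyte markers. Granule cell markers lay at only 0.0011 on hypomorph 2. Of the remaining plotted lists, choroid plexus and ependymal markers stood at 0.17 on wild type 1 and -0.14 on hypomorph 1. They stood at -0.31 on wild type 2 and 0.08 on hypomorph 2. Brainstem and midbrain markers also lay on opposite sides for both numbers.

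Relatives of the members were read in the same fit. Among the T-box genes, 4 of 15 were measured, with 2 higher and 2 lower: Tbx1 differed by -0.42 (SE 0.31), Tbx3 by 0.20 (SE 0.31) and Mga, which carries a T-box beside a helix-loop-helix domain, by 0.19 (SE 0.19). Among LIM-homeodomain factors and their partners, 5 of 13 were measured, with 2 higher. Lhx3, a factor of motor neurons, differed by -0.30 (SE 0.17) on one probe and 0.06 (SE 0.21) on another. The LIM-binding cofactors Ldb2 and Ldb1 differed by 0.37 (SE 0.23) and 0.21 (SE 0.18). Ldb2 lay near background, with detection p-values from 0.0406 to 0.0491 in wild type and 0.0449 in hypomorph 3. None of these passed (lowest adjusted p = 0.992 in limma).

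The vesicular transporter Slc17a7, the granule cell counterpart of Slc17a6, differed by 0.02 (SE 0.18), with a value of 12.63 in wild type 2 and between 12.07 and 12.36 on the other 5 arrays. This sign turned to -0.04 with median scaling and to -0.09 without wild type 1. Slc17a5 (sialin), a lysosomal transporter of sialic acid, differed by -0.69 (SE 0.26, unadjusted p = 0.0315, adjusted p = 0.897 in limma). It read 7.68, 7.81 and 7.32 in wild type and 6.90, 6.44 and 7.41 in the hypomorph, with hypomorph 3 above wild type 3. Slc17a8 (VGLUT3) was above background on 1 of 6 arrays.

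Pvalb (parvalbumin), a calcium buffer of Purkinje cells, molecular layer interneurons and nuclear neurons, differed by 0.04 (SE 0.13) and S100b, a calcium-binding protein of glia, by -0.34 (SE 0.38). The sign of Pvalb turned to -0.05 with array weights. The Calb1 probe was above background on 0 of 6 arrays. Calb1 encodes calbindin, an abundant Purkinje cell protein, so a probe at background here gives no measure of that transcript.

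Spp1 encodes osteopontin, a secreted matrix protein of large nuclear neurons and of activated microglia. Its own level was not analysed, but 7 of 13 listed receptors and relatives were measured. The groups did not overlap for Itgav, Cd44 and Itga8, where they did not overlap for 11% of all measured genes, but Itga8 entered the measured genes only through the hypomorph arrays, so nothing is read from this count. Itgav, the integrin alpha-v subunit, read 6.18, 6.03 and 6.09 in wild type and 6.38, 6.51 and 6.58 in the hypomorph, a difference of 0.39 (SE 0.13, unadjusted p = 0.0180, adjusted p = 0.804 in limma). Its other tested probe differed by -0.04 (SE 0.16). Cd44, a receptor of osteopontin and hyaluronan, read 6.87, 6.48 and 6.54 in wild type and 6.27, 6.22 and 6.18 in the hypomorph, a difference of -0.41 (SE 0.15, unadjusted p = 0.0273, adjusted p = 0.879).

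A second tested Cd44 probe differed by -0.19 (SE 0.32), or 0.11 without wild type 1. Itga8, an integrin subunit that pairs with beta-1, was above background on 0 wild-type and 3 hypomorph arrays with a level at least 1.22-fold higher in the hypomorph. It passed the detection filter only through the group where it is high, so this is a description with no test. Wild type 3 lay just beyond the threshold (detection p of 0.0534), and its log2 value of 5.72 was close to the 5.75 of hypomorph 2. The other 6 genes of the list, among them Itgb3 and Itga4, had no probe that passed the filter.

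Markers of neighbouring regions were mostly near background. Tph2 and Th, enzymes of serotonin and dopamine synthesis, differed by -0.20 (SE 0.16) and -0.16 (SE 0.18), and Hoxb3, a hindbrain patterning gene, by -0.04 (SE 0.25). Of 12 forebrain genes, which bear on Tbr1, 2 were measured. Fezf2, a factor of deep-layer cortical neurons, was above background on 0 wild-type and all 3 hypomorph arrays, with a level at least 1.37-fold higher there. The probe passed the detection filter only through those arrays, so this is a description with no test. On wild type 3 the detection p of 0.0566 lay just beyond the threshold. The second Fezf2 probe was at background on all 6 arrays. Bcl11b, a factor of the same neurons, differed by -0.16 (SE 0.22), and Emx1 and Neurod6 did not pass the filter.

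The other marker lists had 0 genes past the threshold each. Granule cell markers had 4 of 9 higher, with a median of -0.01; among them Kcnd2, a potassium channel, differed by 0.21 (SE 0.16), Fat2, a cadherin, by 0.25 (SE 0.21) and Gabrd, a GABA receptor subunit, by -0.21 (SE 0.20). Purkinje cell markers had 3 of 8 higher (median -0.09), Golgi cell and molecular layer interneuron markers 3 of 9 (-0.05), astrocyte and Bergmann glia markers 2 of 10 (-0.09) and oligodendrocyte markers 0 of 10 (-0.21). Microglia markers had 6 of 9 higher (0.08), endothelial and mural markers 3 of 9 (-0.08), choroid plexus and ependymal markers 2 of 5 (-0.0037) and meningeal markers 1 of 7 (-0.15).

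For each tested member, the genes whose profile over the 6 arrays lay nearest were found by the root mean square difference of log2 values centred on each gene's mean, among 16368 probes. Nearest to Eomes (ILMN_2570496) were Fam126b (0.08), Sema6c, a semaphorin (0.11), and Lrp1b, a lipoprotein receptor (0.12), where the median probe lay at 0.44. Nearest to Slc17a6 (ILMN_2922321) were Sox10, an oligodendrocyte lineage factor (0.06), Hbb-bt, a beta-globin of red cells (0.07), and Nfs1, an enzyme of iron-sulphur clusters (0.07), against a median of 0.33. Nearest to Calb2 (ILMN_2827729) were Rps15a, a ribosomal protein (0.05), St6galnac4, a sialyltransferase (0.05), and Ebag9 (0.06), against a median of 0.34. With 6 arrays and this many probes some profiles lie close to any gene, so these values describe the arrays only.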

How the data were processed

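Per the labels' protocols, cerebellar RNA of 6 mice was hybridised to Illumina bead arrays. The submitters' processing notes name BeadStudio, with version and settings not stated in the labels or headers. The authors deposited non-normalized, background-subtracted intensity values with a detection p-value per probe and array, and a second table of processed intensity values on a linear scale, whose equal distributions across arrays look like quantile normalization, an inference that no header states.

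Intensities were background-corrected from the detection p-values, quantile-normalized and log2-transformed with an offset of 16 (neqc, limma 3.58.1, R 4.3.3). Differences of dim probes are understated by the offset, and a shift of most transcripts would not be seen. Tested were probes whose detection p was under 0.05 on 3 or more arrays, with lmFit and eBayes for the hypomorph against wild type, with no replicate block and with Benjamini-Hochberg adjustment. The fit was also run on simulated data whose noise was independent between arrays, so effects shared by arrays were not part of that run. Each array was taken as 1 animal; the labels do not say how litters were spread over arrays, and p-values measure only the spread between these samples. Probes were named from the platform annotation (34885 with 1 symbol, 18 with several, 10378 with none), and 0 symbols changed against GRCm38.p6. Lists use the brightest tested probe of each gene.

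The members and lists were chosen with earlier results of these data known. Named are Sp4, all member probes, listed relatives, the 3 nearest profiles per member, and the 3 genes with the smallest p in each related list; granule cell, brainstem and forebrain lists are treated as related, and other cell type lists are given by counts, medians and, for some, levels per array. The alternatives were the processed values of the authors, a replicate block, array weights, a variance trend, a stricter filter and none, an offset of 50, scaling by medians, no further background correction, each array left out, and the mean over probes.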

Additional observations from a re-analysis of the deposited data

How the results depend on the processing

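None of the member probes passed the threshold in any of the alternatives. Over all tested probes the count of 0 became 2 with the replicate block, 1 with no further background correction, 5 with an offset of 50, 8 with the authors' processed values, 2 with the stricter filter, 8 with a variance trend and 13 with array weights, and it ran from 0 to 2 without 1 array. The cause was not tested. Deviations of same-numbered arrays correlated at 0.437, 0.400 and 0.062, and those of differently numbered arrays at -0.439 to 0.043. The value for number 3 lay only just above this range, so the check does not settle whether number 3 marks a pair. With the replicate block the adjusted p was 0.567 for Eomes ILMN_1251446 and 0.844 for Slc17a6 ILMN_2922321, and no member's call changed. Of 611 values for 42 probes, 28 had the opposite sign. With array weights these were Eomes ILMN_2570496 (-0.051), Pvalb (-0.055), Plcb4 (-0.040) and Acan (0.036), and with median scaling Slc17a7 (-0.043); median scaling moved the median of tested probes by -0.07. The others came from leaving out 1 array; over these fits the difference ran from -0.10 to 0.27 for Calb2 ILMN_2827729, from -0.17 to 0.45 for Calb2 ILMN_2597412, from -0.16 to 0.065 for Itgav ILMN_1236648, from -0.49 to 0.11 for Cd44 ILMN_1223697, from -0.0071 to 0.096 for Pvalb, from -0.090 to 0.19 for Slc17a7, from -0.042 to 0.33 for Otx2, from -0.15 to 0.29 for Plcb4, from -0.29 to 0.03 for Nefm, from -0.41 to 0.16 for Acan, from -0.12 to 0.38 for Tbx3, from -0.26 to 0.090 for Hoxb3 and from -0.33 to 0.015 for Bcl11b. Without 1 array, Eomes ranged from -0.51 to -0.21 on ILMN_1251446 and from 0.12 to 0.585 on ILMN_2570496. The median of the other nuclear neuron genes ranged from -0.20 to 0.03 and that of the other unipolar brush cell genes from -0.0032 to 0.28 over the same fits. Probes near background (Lmx1a, Tbr1) allow no comparison at this signal.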
